A study of Mus musculus with 6 samples.

Results

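The 10 genes described here belong to the route from the receptor RANK to bone resorption and were taken from the 52636 genes of the tables by symbol. They are 5 regulators (Tnfrsf11a, Traf6, Nfatc1, Mitf and Oscar) and 5 effectors of resorption (Acp5, Ctsk, Clcn7, Ostm1 and Tcirg1), and each symbol matched 1 gene identifier. Transcripts were measured by RNA sequencing in RAW264.7, an established mouse macrophage line whose strain is labelled BALB/c. The 3 C2S libraries came from cells given an extract called C2S at 150 µg/ml for 24 h. The 3 PM_control libraries came from cells given none, and the labels spell out neither name. All cells shared the same medium with fetal bovine serum, and no label names added RANK ligand. RAW264.7 is a single transformed line, and nothing in the labels ties a replicate to a culture of its own. A p-value here is thus relative to the spread of these 6 libraries alone, and that spread may be only technical.

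Osteoclasts, the cells that dissolve bone, form from macrophage precursors when RANK ligand binds the receptor RANK. RANK recruits the adaptor TRAF6, which activates NF-kB and MAP kinases, and calcium signals from co-stimulatory receptors such as OSCAR then activate the transcription factor NFATc1. NFATc1, with MITF, AP-1 and PU.1, turns on the resorption genes, whose products secrete acid and collagen-degrading enzymes onto bone. RAW264.7 cells are a common model because they can form osteoclasts in culture when RANK ligand is given.

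Total estimated counts were 8594485 to 10491307 in the C2S libraries and 9149574 to 10665869 in the PM_control libraries, so a floor of 3 counts in a library stood for 0.281 to 0.349 CPM. CPM are counts scaled to the size of each library and by the TMM factors of edgeR. Such floors, and the counting intervals given later, hold for counting error alone. Of 10 macrophage markers, 9 passed the low-count filter, and the list's summed level was 7006 to 7284 TPM with C2S and 6817 to 7141 TPM in PM_control. TPM are levels scaled for transcript length as well, so they can be compared between genes. Mertk had 1 count in all. Lyz2 alone had 3451 ± 19.9 TPM with C2S and 3221 ± 24.8 TPM in PM_control, so the sum says little about the other markers. Cd14 was lower with C2S (log2 fold change -0.60 ± 0.06; edgeR, adjusted p = 4.39e-07). Adgre1 (0.41 ± 0.09), Cd68 (0.24 ± 0.08) and Lyz2 (0.21 ± 0.06) rose. Csf1r (0.34 ± 0.07) and Itgam (0.80 ± 0.06) also rose but are uncertain, as their exons overlap other genes. Ptprc, Fcgr1 and Spi1 did not pass. Of 8 markers of mature osteoclasts, 4 passed the filter (Dcstamp, Ocstamp, Atp6v0d2 and Car2), with a summed level of 247 to 276 TPM with C2S and 301 to 333 TPM in PM_control, and Calcr, the calcitonin receptor, had 0 counts in every library. Most of that sum was Car2, at 248 ± 18 TPM with C2S and 285 ± 15.5 TPM in PM_control, whose CPM overlapped between the groups and did not pass the test (log2 fold change -0.13 ± 0.06; edgeR, adjusted p = 0.0975). Lists for osteoblasts and fibroblasts, T cells, B cells, neutrophils, endothelial and epithelial cells summed to at most 6.79 TPM in any library. T cell markers summed to 4.38 to 6.79 TPM with C2S and 2.17 to 3.45 TPM in PM_control, with Cd3e and Cd2 at 0 counts. Nearly all of that sum was 1 gene, Lck, at 5.19 ± 1.4 TPM with C2S and 2.72 ± 0.657 TPM in PM_control. B cell markers summed to 2.48 to 4.66 TPM with C2S and 0.12 to 0.54 TPM in PM_control, with Ms4a1 at 0 counts. Nearly all of that sum was Cd79a, with 41 counts with C2S and 4 in PM_control, and Cd79b, with 30 and 3 counts. For both the groups did not overlap, and neither passed the low-count filter. The part of these marker lists in the results below was not tested.

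The receptor RANK and the factors NFATc1 and MITF fell at the transcript level with C2S, while the adaptor Traf6, the proton pump subunit and the chloride exchanger of resorption rose. Nfatc1 was 4.55-fold lower with C2S and Tnfrsf11a 2.35-fold lower, whereas Tcirg1 rose 1.98-fold and Clcn7 2.26-fold. Of the 10 genes, 8 passed the low-count filter and were tested, and 6 of these changed, 3 higher and 3 lower, where 55.4% of all 11561 tested genes changed (edgeR, adjusted p under 0.05). Among all tested genes 27.0% were higher and 28.4% lower, so calls were common throughout, and a count of 6 among 8 genes is not by itself a result about them. Of the 4 tested regulators 3 fell and 1 rose, with a median log2 fold change of -0.83. Of the 4 tested effectors 2 rose and 0 fell, with a median of 0.43, and the median of all tested genes was 0.00. The groups did not overlap in 61.1% of all tested genes. In cell populations of this kind, fewer cells that carry a transcript and less of it per cell cannot be told apart.

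**Figure D1:**
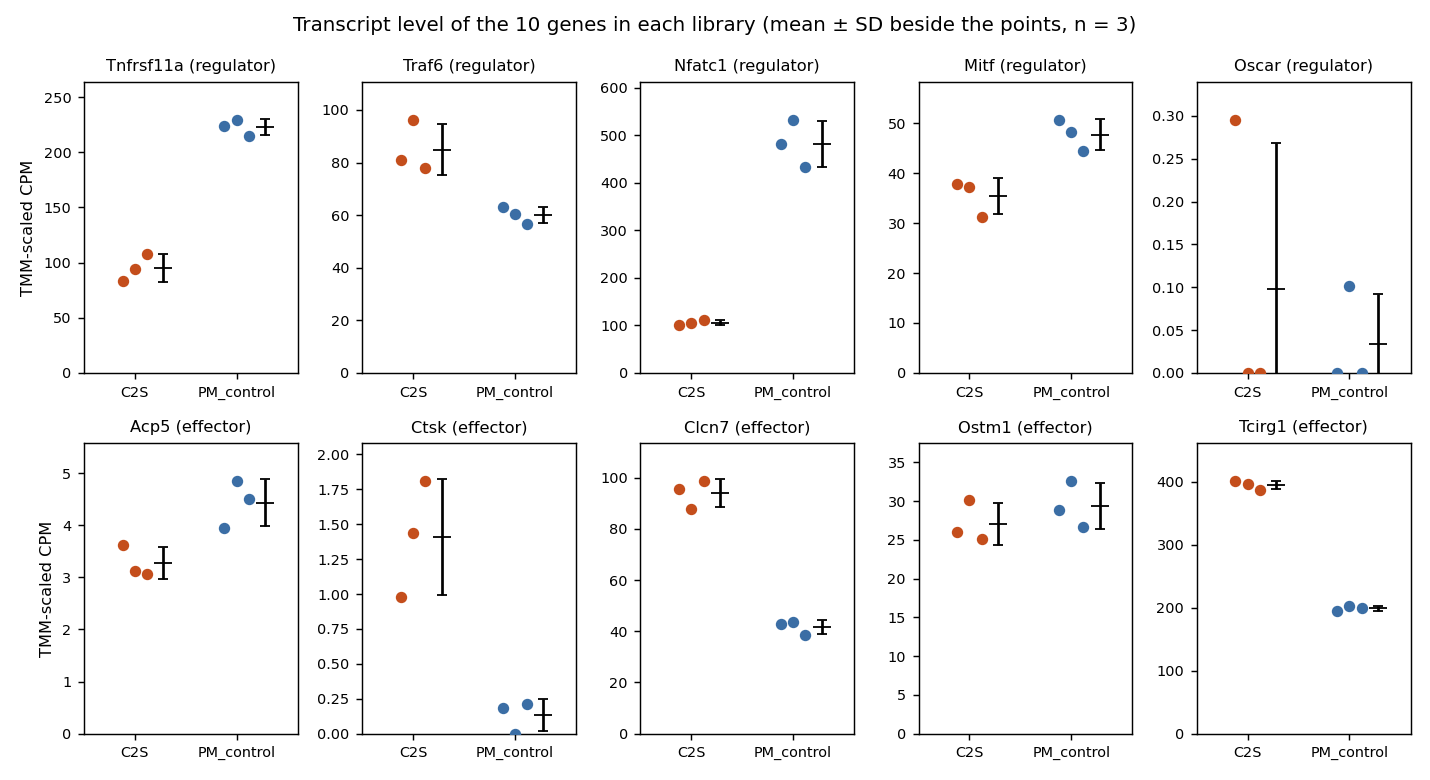
TMM-scaled CPM of the 10 genes in each library, with C2S in orange on the left and PM_control in blue on the right of each panel. Points are libraries, and the black bar beside them is the mean with its SD (n = 3). The C2S points lie below the PM_control points for Nfatc1 and Tnfrsf11a and above them for Tcirg1 and Clcn7, while Ostm1 overlaps and Oscar has 0 counts in 4 of 6 libraries.

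Tnfrsf11a (ENSMUSG00000026321, mm10 chromosome 1, 105780718 to 105847981, plus strand) encodes RANK itself, the receptor of RANK ligand. It had 83.4, 93.9 and 108 CPM with C2S, against 224, 229 and 215 CPM in PM_control. Every C2S library was below every PM_control library, and the log2 fold change was -1.23 ± 0.08 (SE; edgeR, adjusted p = 9.67e-10). Its ligand gene Tnfsf11 and the decoy receptor gene Tnfrsf11b had 0 counts in all 6 libraries, so no transcript of the ligand was detected at this depth.

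Traf6 (ENSMUSG00000027164, chromosome 2, 101678429 to 101701669, plus strand) encodes the ubiquitin ligase and adaptor that links RANK to NF-kB and MAP kinases. It had 80.9, 96.1 and 77.8 CPM with C2S, against 63.0, 60.5 and 56.8 CPM in PM_control. It was the only regulator of the 4 tested that rose, by 0.50 ± 0.09 on the log2 scale (edgeR, adjusted p = 0.000133), and the groups did not overlap.

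Nfatc1 (ENSMUSG00000033016, chromosome 18, 80606205 to 80713071, minus strand) encodes the calcium-regulated factor known as the master regulator of osteoclast formation. It had 101, 106 and 111 CPM with C2S, against 481, 532 and 434 CPM in PM_control. The lowest PM_control library was far above the highest C2S library. The log2 fold change of -2.19 ± 0.08 (edgeR, adjusted p = 3.33e-13) stood at percentile 0.934 of all tested genes, near the lower end of the whole distribution. Nfatc1 was the most abundant of the 10 genes in PM_control, at 171 ± 17.5 TPM (SD, n = 3), and ranked 4 with C2S, at 34.8 ± 1.95 TPM.

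Mitf (ENSMUSG00000035158, chromosome 6, 97807052 to 98021349, plus strand) encodes a basic helix-loop-helix factor that, with its relatives, acts on genes of lysosomes and osteoclasts. It had 37.9, 37.2 and 31.3 CPM with C2S, against 50.6, 48.2 and 44.4 CPM in PM_control. The groups did not overlap, and the log2 fold change was -0.43 ± 0.10 (edgeR, adjusted p = 0.00105). Oscar (ENSMUSG00000054594, chromosome 7, 3609813 to 3616157, minus strand), a co-stimulatory receptor that signals through an ITAM adaptor, had 3, 0 and 0 counts with C2S and 0, 1 and 0 counts in PM_control. Both groups were at or under the floor, so a difference was not detectable at this depth.

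Among the effectors, Tcirg1 (ENSMUSG00000001750, chromosome 19, 3896050 to 3907133, minus strand) encodes the a3 subunit through which the vacuolar ATPase acidifies the space between osteoclast and bone. It had 401, 396 and 387 CPM with C2S, against 195, 203 and 199 CPM in PM_control. Libraries of each group lay close together and the groups were far apart, differing by 0.99 ± 0.06 on the log2 scale (edgeR, adjusted p = 2.11e-10). With C2S it was the most abundant of the 10 genes, at 245 ± 11.3 TPM.

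Clcn7 (ENSMUSG00000036636, chromosome 17, 25133391 to 25162104, plus strand) encodes ClC-7, the chloride and proton exchanger that balances the charge moved by the pump. It had 95.5, 87.9 and 98.7 CPM with C2S, against 42.8, 43.8 and 38.4 CPM in PM_control. The groups did not overlap, and the log2 fold change was 1.17 ± 0.08 (edgeR, adjusted p = 3.41e-09). Ostm1 (ENSMUSG00000038280, chromosome 10, 42583822 to 42702459, plus strand), the membrane protein that ClC-7 needs for its stability, did not pass the test. It had 26.0, 30.1 and 25.1 CPM with C2S, against 28.8, 32.6 and 26.7 CPM in PM_control, and the groups overlapped (log2 fold change -0.12 ± 0.11; edgeR, adjusted p = 0.375).

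The ratio of Clcn7 to Ostm1, 2 genes whose products work as 1 complex, was higher in every C2S library than in any PM_control library. In TPM it was 3.98, 2.68 and 2.88 with C2S, against 1.32, 0.97 and 1.16 in PM_control. The log2 ratio averaged 1.65 ± 0.30 with C2S and 0.19 ± 0.23 in PM_control (SD, n = 3 each), a difference of 1.45. An exact two-sided permutation test over the 6 libraries gave p = 0.1, the smallest value that 3 against 3 libraries allow. With Clcn7 higher and Ostm1 not called, the ratio follows from the values of the 2 genes and adds no further support.

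The enzymes of resorption were scarce in both groups. Acp5 (ENSMUSG00000001348, chromosome 9, 22126727 to 22135711, minus strand), the tartrate-resistant acid phosphatase used as an osteoclast stain, had 3.63, 3.13 and 3.06 CPM with C2S, against 3.95, 4.85 and 4.51 CPM in PM_control. The groups did not overlap, but the difference did not pass the test (log2 fold change -0.43 ± 0.25; edgeR, adjusted p = 0.157). It passed with limma on log2(TPM + 1), where the log2 fold change was -0.47 (adjusted p = 0.0414; range over its 15 alternatives 0.0414 to 0.332), and 40.5% of all genes tested there were called.

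Ctsk (ENSMUSG00000028111, chromosome 3, 95499256 to 95509362, plus strand), cathepsin K, the main collagen-degrading protease of osteoclasts, had 10, 12 and 16 counts with C2S, against 2, 0 and 2 counts in PM_control. Every C2S library had more counts than any PM_control library, but the gene did not pass the low-count filter. The ratio of CPM over the groups was 10.5 (exact 95% counting interval 3.79 to 40.7, from 38 and 4 counts). Fitted without a filter, its log2 fold change was 3.27 (edgeR, adjusted p = 0.000261), in a fit that called 35.9% of all genes, and 18.1% of all genes as higher. For Nfatc1 that fit gave an adjusted p of 6.96e-223 (edgeR), against 3.33e-13 with the filter, at log2 fold changes of -2.21 and -2.19. Its p-values are thus not on the scale of the main fit, and the call of Ctsk supports nothing further. At 1.6 ± 0.462 TPM with C2S and 0.16 ± 0.139 TPM in PM_control, Ctsk was the least abundant of the 5 effectors in both groups.

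**Figure D2:**
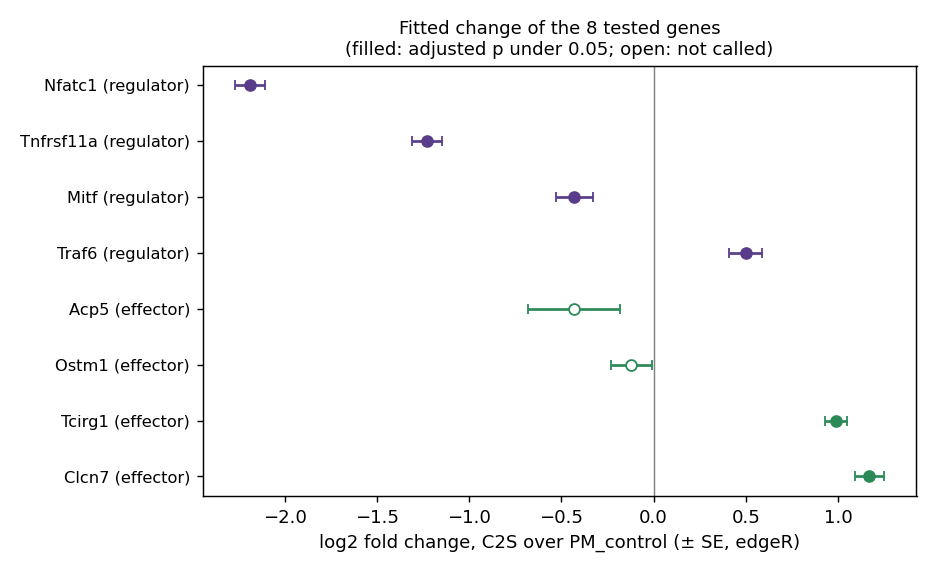
Log2 fold change of C2S over PM_control with its SE for the 8 tested genes, regulators in purple above and effectors in green below. Filled points passed the test in edgeR and open points did not. Values run between -2.19 for Nfatc1 and 1.17 for Clcn7, and Acp5 and Ostm1 are open.

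Per transcript length, the order of the genes differed between the groups. With C2S, Tcirg1 led at 245 ± 11.3 TPM, followed by Clcn7 (43.8 ± 8.08 TPM), Tnfrsf11a (37.9 ± 4.69 TPM) and Nfatc1 (34.8 ± 1.95 TPM), and the ranges of Clcn7 and Tnfrsf11a, and of Tnfrsf11a and Nfatc1, overlapped. Traf6 came next at 22.5 ± 2.15 TPM, and Ostm1 (13.9 ± 1.47 TPM) and Mitf (13.4 ± 2.33 TPM) overlapped. In PM_control, Nfatc1 led at 171 ± 17.5 TPM, above Tcirg1 (134 ± 3.69 TPM) and Tnfrsf11a (90.4 ± 1.5 TPM), each apart from the next. Mitf, Clcn7, Traf6 and Ostm1 then lay between 14.6 and 22.1 TPM, each overlapping its neighbour. Acp5 and Ctsk followed in both groups. Summed over the 5 regulators, the level was 102 to 114 TPM with C2S and 276 to 313 TPM in PM_control. Summed over the 5 effectors, it was 287 to 322 TPM with C2S and 167 to 179 TPM in PM_control. The regulator sum was below the effector sum in every C2S library and above it in every PM_control library. Most of the regulator sum in PM_control was Nfatc1, and most of the effector sum in every library was Tcirg1. The order of the sums thus rests largely on these genes and does not describe the others.

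Sequences upstream of a start site are shown for the 2 effectors that rose, for the receptor that fell, and for the start site of Mitf that held a cyclic AMP response element. RefSeq (GRCm38.p6) gave 16 start sites for 9 of the 10 genes, all but Nfatc1. The 250 bases before each start were searched on both strands for the E-box CACGTG, its extended form TCACGTGA, the AP-1 site TGANTCA, the cyclic AMP response element TGACGTCA, the PU.1 core GAGGAA, the NFAT core GGAAA and the kappaB site. Capitals mark an E-box or a cyclic AMP response element.
Clcn7 (chr17:25133141-25133390, plus strand): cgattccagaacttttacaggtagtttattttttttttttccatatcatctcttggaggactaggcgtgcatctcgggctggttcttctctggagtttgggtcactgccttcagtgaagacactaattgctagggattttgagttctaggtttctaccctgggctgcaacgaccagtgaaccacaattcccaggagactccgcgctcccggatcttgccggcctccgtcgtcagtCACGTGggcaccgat
Tcirg1 (chr19:3907134-3907383, minus strand): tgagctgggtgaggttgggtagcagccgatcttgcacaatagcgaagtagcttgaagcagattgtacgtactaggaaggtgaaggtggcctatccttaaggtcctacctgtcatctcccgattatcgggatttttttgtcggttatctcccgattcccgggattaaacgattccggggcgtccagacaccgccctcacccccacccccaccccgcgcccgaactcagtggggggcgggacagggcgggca
Tnfrsf11a (chr1:105780473-105780722, plus strand): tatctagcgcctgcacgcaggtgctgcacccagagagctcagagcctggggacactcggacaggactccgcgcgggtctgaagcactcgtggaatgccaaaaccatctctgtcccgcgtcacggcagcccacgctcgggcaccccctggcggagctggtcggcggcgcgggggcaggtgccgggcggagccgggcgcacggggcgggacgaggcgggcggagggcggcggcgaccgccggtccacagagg
Mitf (chr6:97991533-97991782, plus strand): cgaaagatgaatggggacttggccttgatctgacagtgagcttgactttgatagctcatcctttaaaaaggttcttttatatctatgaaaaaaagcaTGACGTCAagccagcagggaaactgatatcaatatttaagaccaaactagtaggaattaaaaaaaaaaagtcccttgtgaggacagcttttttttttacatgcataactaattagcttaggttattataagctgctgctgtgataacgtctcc

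The E-box, the core bound by MITF and its relatives, was found in 1 of the 16 windows, that of Clcn7, and in 6.02% of all 32851 windows. In Clcn7 it ended 10 bases before the start site. The cyclic AMP response element was in 1 window, of Mitf, and in 1.55% of all windows. The AP-1 site, the kappaB site and the extended E-box were in 0 of the 16 windows, against 6.75%, 0.356% and 0.785% of all windows. With shares this low, 0 of 16 windows does not show that the genes lack such sites. The PU.1 core was in 4 windows (23.3% of all) and the short NFAT core in 8 (55.6% of all). The extended E-box contains the E-box, the kappaB site contains the NFAT core on the opposite strand, and the PU.1 and NFAT cores can share letters. A match describes letters in the window and does not show a bound factor.

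The tables also gave RSEM's mean transcript length of each gene in each library, which moves when the estimated mix of its transcripts moves. Of the 8 tested genes, 0 passed the test on this length and 0 had an unadjusted p under 0.05 (limma on log2 length, where 0.386% of 9056 genes were called and 9.42% had an unadjusted p under 0.05). For Tnfrsf11a the length was 3840, 3737 and 3856 bases with C2S, against 4142, 4006 and 3881 bases in PM_control. The groups did not overlap, and the log2 difference was -0.07 ± 0.03 (limma, adjusted p = 0.552). The annotation lists for this gene a coding transcript of 5027 bases and retained-intron transcripts of 611 and 1041 bases. For Clcn7 the length varied within groups, with 2809, 3281 and 4004 bases with C2S and 3365, 4071 and 3672 bases in PM_control. Its TPM was 52.8, 41.7 and 37.1 with C2S and 21.3, 17.3 and 17 in PM_control, a wider spread with C2S than in its CPM, and the groups did not overlap on either scale.

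Each member was then set beside its own gene family, with the family's TPM summed in each library. Nfatc1 held 18.4%, 18.7% and 20.5% of the TPM of 5 NFAT genes with C2S, against 51.4%, 58.2% and 54.0% in PM_control. The family summed to 177 to 189 TPM with C2S, against 282 to 337 TPM in PM_control, and the shares did not overlap between the groups. Nfatc2, which shares calcineurin control with Nfatc1, fell by 1.52 ± 0.08 on the log2 scale (edgeR, adjusted p = 9.31e-11), and Nfatc3 fell by 0.26 ± 0.07 (adjusted p = 0.00664). Nfat5, the tonicity-responsive member that lacks calcineurin control, rose by 0.60 ± 0.08 (edgeR, adjusted p = 8.95e-06). It was the most abundant NFAT gene with C2S, at 97.7 ± 4.58 TPM, against 61.6 ± 11.2 TPM in PM_control. Nfatc4 had 97 counts with C2S and 1 in PM_control, a CPM ratio of 108 (exact 95% counting interval 18.9 to 4293). It was scarce, at 1.44 ± 0.551 TPM with C2S, and passed the low-count filter only through the C2S libraries, where it was high. No test is thus given for it, and the ratio supports nothing further.

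Within the MiT/TFE family, to which Mitf belongs, Mitf held 13.8%, 10.3% and 8.25% of the TPM with C2S, against 15.4%, 14.4% and 14.7% in PM_control. Tfeb, a regulator of lysosome genes, fell by 0.64 ± 0.13 (edgeR, adjusted p = 0.000385) and the scarce Tfec by 0.90 ± 0.34 (adjusted p = 0.0318). Tfe3, the most abundant of the 4, rose by 0.31 ± 0.07 (edgeR, adjusted p = 0.00104), at 156 ± 4.95 CPM with C2S and 126 ± 10.2 CPM in PM_control. In TPM it had 96.1 ± 21.4 with C2S and 79.2 ± 8.95 in PM_control, which overlap within their SDs. In the TRAF family Traf6 held 11.5%, 13.8% and 11.6% with C2S, against 9.37%, 8.34% and 9.46% in PM_control. Traf5 also rose, by 1.12 ± 0.25 (edgeR, adjusted p = 0.00114), while Traf2 (-0.32 ± 0.10; adjusted p = 0.0109) and Traf3 (-0.33 ± 0.07; adjusted p = 0.000895), which restrain the alternative NF-kB route, fell. Traf1 (0.04 ± 0.13), Traf4 (0.42 ± 0.18) and Traf7 (0.15 ± 0.07) did not pass.

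Among the a subunits of the vacuolar ATPase, Tcirg1 held 68.4%, 67.9% and 69.2% of the TPM with C2S, against 66.5%, 62.8% and 62.0% in PM_control. Atp6v0a1 rose too, by 1.03 ± 0.08 (edgeR, adjusted p = 2.36e-08), and Atp6v0a2 did not pass (0.10 ± 0.07; adjusted p = 0.238). Atp6v0a4 had 0 counts with C2S and 1 in PM_control. The summed level of the a subunits was 335 to 371 TPM with C2S and 204 to 216 TPM in PM_control. Among the CLC exchangers Clcn7 held 39.4%, 35.9% and 35.1% with C2S, against 20.6%, 18.8% and 20.1% in PM_control. It alone of the 5 CLC genes passed the test, with Clcn3, Clcn4, Clcn5 and Clcn6 between -0.07 ± 0.07 and 0.18 ± 0.14.

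Ctsk was a trace among the lysosomal cathepsins, with 0.0206% to 0.0396% of their summed TPM with C2S and 0% to 0.00569% in PM_control. The leading cathepsin, Ctsb, had 1772 ± 122 TPM with C2S and 1306 ± 26.2 TPM in PM_control, which was higher by 0.51 ± 0.06 on the log2 scale (edgeR, adjusted p = 2.11e-06). Ctsd, Ctsl, Ctsa and Ctsz also rose, by 0.31 to 0.42 on the log2 scale, and Ctss (-0.02 ± 0.05) and Ctsc (-0.12 ± 0.08) did not pass. Exons of Ctsd (34.4%), Ctsl (26.8%), Ctsb (12.8%), Clcn4 (11.5%) and Ctsa (10.5%) share the stated percentage of bases with a neighbouring gene, and counts of Ctsd were not whole, so these 5 are uncertain. The groups did not overlap in any of the 6 family shares, and each gave p = 0.1 in an exact two-sided permutation test, the smallest possible here (0.1 adjusted over the 6). In CPM the groups did not overlap for 61.1% of all tested genes, and the members were chosen with earlier results known. Nothing is thus read from the count of shares that did not overlap.

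**Figure D3:**
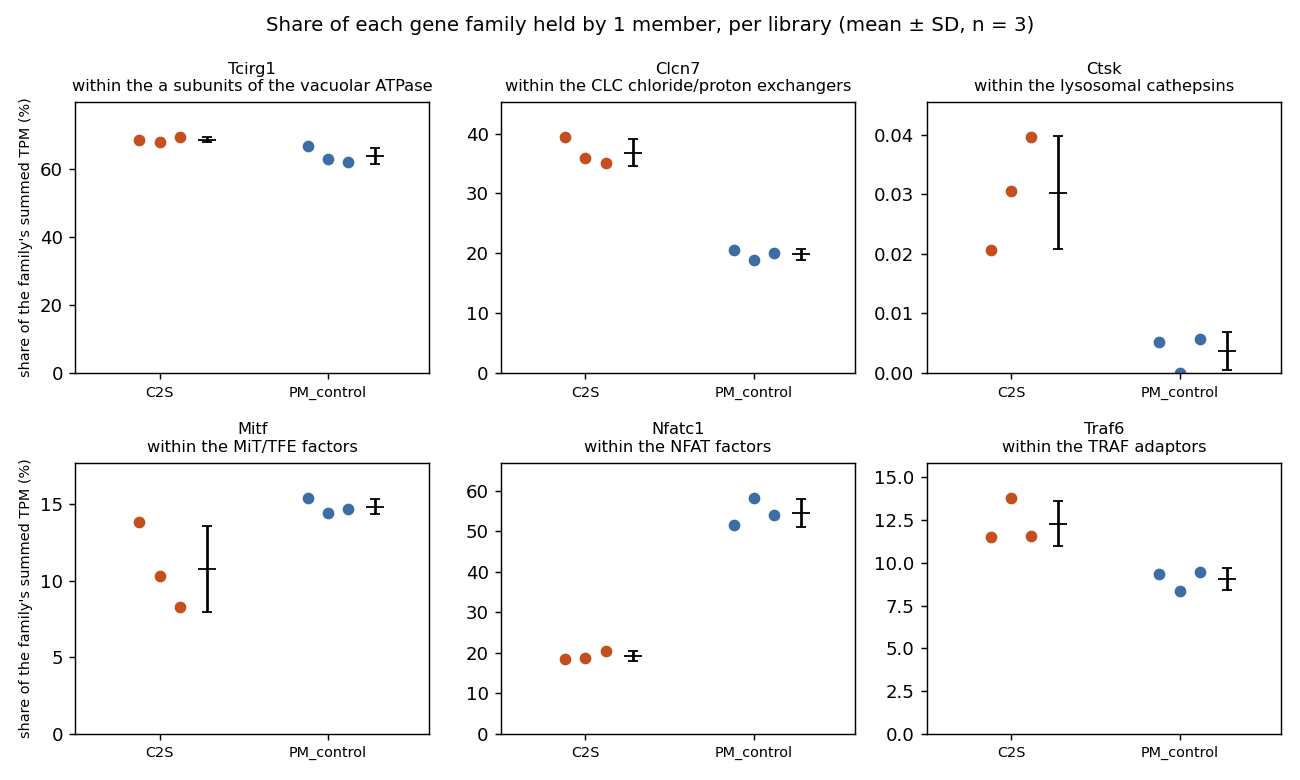
Share of a gene family's summed TPM held by 1 member in each library, C2S in orange on the left and PM_control in blue on the right, with the mean and SD (n = 3). The axes start at 0 and differ between panels. The share of Nfatc1 lies between 18.4% and 20.5% with C2S and between 51.4% and 58.2% in PM_control.

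The wider pathway was described with 8 lists of 127 genes, of which 112 were tested, with 46 higher and 36 lower and a median log2 fold change of 0.04. Against these stand the 27.0% higher and 28.4% lower among all tested genes, so both counts are above the background, and nothing particular to the lists is read from them. The counts include Src and Camk4 (higher) and Slc9b2 (lower), scarce genes that passed the filter only through the group where they were high. Of 24 genes of RANK signalling to NF-kB and MAP kinases, all tested, 11 rose and 6 fell (median 0.15). Gab2, a scaffold that binds RANK, rose to 69.9 ± 4.31 CPM with C2S, against 28 ± 3.1 CPM in PM_control (edgeR, adjusted p = 4.03e-09). Relb, a subunit of the alternative NF-kB dimer, rose by 1.07 ± 0.11, while Tab1, which activates the kinase TAK1, fell by 1.40 ± 0.13 and Map3k14, the NF-kB-inducing kinase, by 0.92 ± 0.10. Of the list of ligands and the CSF1 axis, 2 of 5 genes were tested, and Csf1r, the receptor that keeps the lineage alive, rose by 0.34 ± 0.07 (edgeR, adjusted p = 0.000318), although its exons overlap Hmgxb3 over 15.1% of their length and it is uncertain.

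Of 12 tested genes of ITAM co-stimulation, 6 rose and 3 fell (median 0.14), with the adaptors Lcp2 (0.74 ± 0.09) and Blnk (0.64 ± 0.09) higher and the phosphatase Ptpn6 (-0.33 ± 0.06) and the kinase Btk (-0.40 ± 0.07) lower. Of 18 tested genes of the calcium and calcineurin arm, 7 rose and 6 fell (median 0.03). The calcium release channels Itpr1 (0.96 ± 0.08) and Itpr2 (0.88 ± 0.08) rose. Rcan1, an inhibitor of calcineurin, fell to 26.8 ± 1.22 CPM with C2S, against 52.7 ± 7.82 CPM in PM_control (edgeR, adjusted p = 8.87e-07), and Rcan3 fell by 0.64 ± 0.08.

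Of 19 transcription factors that work with NFATc1, 9 rose and 7 fell (median 0.03). The AP-1 genes Jun (3.91 ± 0.07) and Fosl2 (2.42 ± 0.07) rose, while Fos, the AP-1 gene that osteoclast formation needs, fell by 0.57 ± 0.09 (edgeR, adjusted p = 2.55e-05) and was named after its value was seen. Nfatc2 and the zinc finger factor Ikzf1 (-0.54 ± 0.07) fell. Of 11 tested repressors of osteoclast formation and their silencer, 6 rose and 3 fell (median 0.47). Irf8, whose product inhibits NFATc1, rose to 144 ± 12.8 CPM with C2S, against 79.3 ± 4.95 CPM in PM_control (edgeR, adjusted p = 6.17e-08), and Dusp1, a MAP kinase phosphatase, rose by 3.84 ± 0.13. Nfkbid (-0.95 ± 0.13) and Rbpj (-0.36 ± 0.07) fell, Rbpj with counts that were not whole and are uncertain. Prdm1, which encodes the silencer Blimp1, had 0 counts in every library.

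Of 13 tested genes of precursor fusion, 1 rose and 6 fell (median -0.23). Dcstamp, the fusion receptor, fell to 17.0 ± 3.02 CPM with C2S, against 32.2 ± 1.97 CPM in PM_control (edgeR, adjusted p = 9.05e-06). The tetraspanin Cd9 fell by 0.53 ± 0.07, uncertain because its exons overlap Gm26728, and Cd44 rose by 0.34 ± 0.08. Of 13 tested genes of attachment, acid and matrix resorption, 5 rose and 5 fell (median -0.13). Itgav, the integrin chain that anchors osteoclasts, fell to 103 ± 1.7 CPM with C2S, against 201 ± 8.64 CPM in PM_control, and the sugar-phosphate transporter Slc37a2 fell by 1.08 ± 0.07. Vav3, a guanine nucleotide exchange factor (1.37 ± 0.09), and Sh3pxd2a, a podosome scaffold (1.29 ± 0.10), rose.

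**Figure D4:**
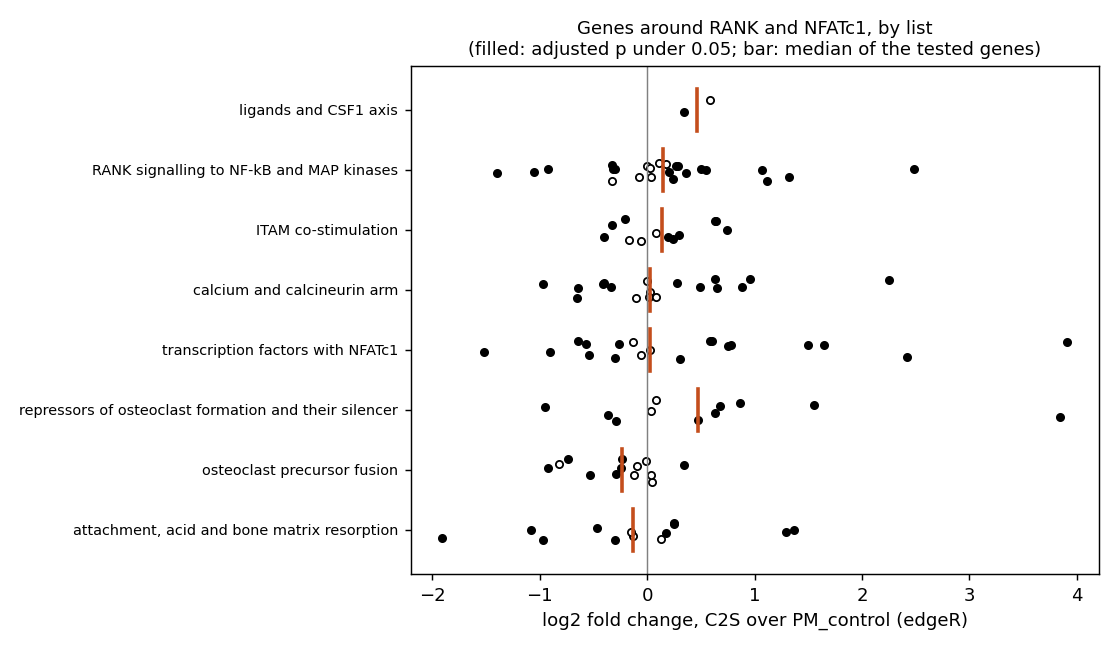
Log2 fold change of C2S over PM_control for each tested gene of the 8 lists around RANK and NFATc1. Filled points passed the test in edgeR, open points did not, and the orange bar is the list's median, which lies between -0.23 for precursor fusion and 0.47. The filled points include Src, Camk4 and Slc9b2, scarce genes that passed the filter only through the group where they were high.

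The genes closest to Nfatc1 in their profile, by Euclidean distance between mean-centred log2 CPM over the 6 libraries among 9121 genes, were Rubcnl (0.19), Patz1 (0.19) and mt-Nd6 (0.24), where the median distance was 2.68. Patz1, a zinc finger gene, had 28 ± 2.39 CPM with C2S and 120 ± 8.93 CPM in PM_control, with a 10.2% exon overlap that makes it uncertain. The closest to scarce Ctsk were Klf11 (0.74), Btg2 (0.79) and Ankrd33b (0.80), with a median distance of 3.03. With 2 groups, such a profile is mostly the size of the group difference.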

How the data were processed

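RNA of 6 RAW264.7 libraries was sequenced, and groups and replicate numbers came from the sample titles. Per the series design text, the authors trimmed reads with fastp, aligned them to mm10 with STAR and counted them per gene with RSEM. Neither tool versions nor the annotation or strand setting are stated in what was used here, so genes with at least 10% exon overlap on either strand are given as uncertain. Each library has its own deposited table, which per the file headers holds expected counts (reads per gene as RSEM estimates them), TPM, FPKM and mean transcript lengths. The deposited TPM are scaled for length and depth, and the deposited FPKM were not used. Symbols were found for 52403 of 52636 genes, and coordinates are from GENCODE M21 (GRCm38).

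Expected counts were rounded, and filterByExpr, at a minimum count of 10 and a total of 15, kept 11561 genes. Groups were compared by the quasi-likelihood test of edgeR 4.0.16 in R 4.3.3, scaled by TMM, with no covariate. P-values were adjusted by Benjamini-Hochberg over all tested genes and called at 0.05. DESeq2 1.42.0 and limma 3.58.1 served the alternatives and the length test. The SE is the size of the log2 fold change divided by the square root of F. Depth was 8594485 to 10665869 counts, which sets the floor of 3 counts given with the results. Ratios of low counts have exact 95% intervals. No tables were identical, and chi-square per degree of freedom between libraries of a group was 4.3 to 6.46. Each table was counted as 1 library, and these values cannot show whether the libraries came from separate cultures. On data simulated for this comparison over 11418 genes, 70% of 1.5-fold, 86% of 2-fold, 98% of 4-fold and 100% of 8-fold changes were recovered. Only 50 genes were changed at each fold, and 11 of 188 calls were false. In the data 55.4% of tested genes were called, so the recovery there may differ.

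The members and lists were chosen with earlier results of these data known. Named genes were the 10 members, up to 2 called genes per direction and list by adjusted p with groups that did not overlap, the families, and the 3 genes nearest to Nfatc1 and to Ctsk with a mean of at least 5 CPM. Alternatives were RLE factors, library sizes alone, DESeq2, limma on log2(TPM + 1) for genes averaging 1 TPM or more, no filter, the replicate number as a block, removal of each library's trend over GC content, dropping genes whose counts were not whole, and dropping each library. The value of 1 marker gene is not reported here.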

Additional observations from a re-analysis of the deposited data

How the results depend on the processing

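The 6 calls among the members kept their direction and side of the threshold in all 15 alternatives. Over these, the log2 fold change was -2.27 to -2.11 for Nfatc1, -1.33 to -1.14 for Tnfrsf11a, -0.52 to -0.35 for Mitf, 0.40 to 0.58 for Traf6, 1.09 to 1.22 for Clcn7 and 0.87 to 1.00 for Tcirg1. Ostm1 passed in none (-0.21 to -0.04), and Acp5 passed in limma on log2(TPM + 1) alone (-0.47, adjusted p = 0.0414). Without a filter Ctsk was called higher as well, in a fit whose p-values are not on the scale of the main fit. Leaving out 1 library gave 3 to 4 members higher and 3 lower, the fourth being Ctsk in the 4 of 6 cases where it passed the filter. It could pass only through the C2S libraries, where it was high, so these calls support nothing further.

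Same-numbered libraries did not deviate together (correlations -0.0112, 0.0686 and 0.0344), so the numbers were not treated as pairs. With the replicate block 3 members were called higher and 3 lower, Nfatc1 was at -2.18 and Clcn7 at 1.17, and no call of a member changed. With the block, the lists had 46 genes higher and 37 lower, and with the trend over GC content removed as well 48 and 31. The family shares and the ratio of Clcn7 to Ostm1 gave p = 0.25 in an exact sign-flip test over paired replicate numbers, the smallest possible.

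Computed from counts per mean length in place of TPM, the rise in the share of Tcirg1 was 6.77 percentage points, against 4.73. Among the lists, limma on log2(TPM + 1) called 6 of the RANK signalling genes higher in place of 11, 0 of the fusion genes in place of 1 and 3 of the resorption genes in place of 5, and library sizes alone also gave 3. The cause was not tested. The higher share of all calls moved with scaling, with 3123 higher and 3282 lower against 2478 and 3999 with library sizes alone and 1717 and 3065 with limma on log2(TPM + 1). Depth limits Oscar, Ctsk and Acp5, which had 3, 38 and 90 counts with C2S and 1, 4 and 134 in PM_control.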

Other observations

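Further genes of the osteoclast program are given by their values, named after those were seen. Atp6v0d2, a fusion gene, fell by 0.74 ± 0.29 on the log2 scale (edgeR, adjusted p = 0.0389), with 62 counts with C2S and 115 in PM_control. Creb1, which encodes the factor CREB, fell to 44.5 ± 4.45 CPM with C2S, against 70 ± 5.96 CPM in PM_control (edgeR, adjusted p = 1.59e-05). Their lists held genes of either direction. In the calcium and calcineurin arm, with Creb1, 7 of 18 tested genes rose and 6 fell. Ppp3ca of that arm rose by 0.65 ± 0.08 (edgeR, adjusted p = 2.23e-06). In precursor fusion, with Atp6v0d2, 1 of 13 rose and 6 fell.

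Scarce genes passed the low-count filter only through the group where they were high, so no test is given for them. The list counts above still include such calls, with Src and Camk4 among the genes that rose and Slc9b2 among those that fell. Src, the kinase that osteoclasts need to form their ruffled border, had 47 counts with C2S and 9 in PM_control. Camk4, a calcium-dependent kinase upstream of CREB, had 65 counts with C2S and 15 in PM_control. Slc9b2, a sodium and proton exchanger of osteoclasts, had 11 counts with C2S and 47 in PM_control. For these 3 genes the groups did not overlap, as was the case for 61.1% of all tested genes. The 3 genes were named after their values were seen, so this adds no support.

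Below the filter, the groups overlapped for each of the following genes, and no difference is read from them. Siglec15, a receptor on osteoclasts that signals through an ITAM adaptor, had 0.209 ± 0.159 CPM with C2S and 1.07 ± 0.856 CPM in PM_control (SD, n = 3 each). Mmp9, a gelatinase of osteoclasts, had 29 counts with C2S and 20 in PM_control, and Itgb3, the partner chain of Itgav, had 7 with C2S and 5 in PM_control.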
